A study of Mus musculus with 74 samples.

Results

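The genes described here encode the subunits of the mitochondrial respiratory chain and of ATP synthase, together with a few relatives that share their names. They were taken by symbol alone: symbols that begin with Ndufa, Ndufb, Ndufc, Ndufs or Ndufv, with Uqcr, with Cox4 to Cox8 or with Atp5, and the 4 Sdh genes. The rule found 88 of the 14583 genes in the RNA-seq table, of which 77 encode subunits. The other 11 are the complex I assembly factors Ndufaf1 to Ndufaf8, and Ndufa4l2, Atp5s and Atp5sl. The filter on low counts kept 85 of the 88, and left out Atp5g2, Atp5l and Cox6b2, whose highest normalised count in any library was 17.8. In the ChIP-seq data 91 genes that match the rule were the nearest gene of at least 1 peak, and 4 of these, the isoform genes Cox4i2, Cox6a2, Cox7b2 and Cox8b, are absent from the RNA-seq table.

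The study compared livers of C57BL/6 mice, 8 to 12 weeks of age and on chow diet, that lack GPS2, NCOR or SMRT in hepatocytes with livers of their controls. Gps2 LKO mice carried floxed Gps2 alleles and an Alb-Cre transgene, which is active in hepatocytes, and the controls named WT were floxed littermates without Cre, so the floxed alleles are shared by both groups. Ncor LKO and Smrt LKO are liver-specific knockouts with WT controls of their own lines, and Ppara KO mice lack PPARα in the whole body and came from a stock named B6;129S4. Polyadenylated RNA of whole liver was sequenced from 4 WT and 4 Gps2 LKO samples, and ChIP-seq libraries were made from pooled immunoprecipitations, so a ChIP library is not 1 immunoprecipitation. The study's methods give the mice as male and the replicates as biological, but no source ties a library to an animal, so the p-values below measure only the spread between these libraries. In whole liver, fewer cells of a type and less RNA per cell cannot be told apart.

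The respiratory chain passes electrons from NADH through complex I and from succinate through complex II to ubiquinone, on through complex III and cytochrome c, and through complex IV to oxygen. Complexes I, III and IV pump protons across the inner mitochondrial membrane, and ATP synthase, with its catalytic F1 head and its membrane part Fo, uses the returning protons to make ATP. Hepatocytes are rich in mitochondria and depend on this chain to oxidise the electrons released when fatty acids are burned. Most of the subunits are encoded in the nucleus by short, highly expressed genes whose promoters are known for sites of GABP, NRF1, YY1 and ERRα. GPS2 is a subunit of the corepressor complexes built on NCOR and SMRT, and PPARα is a nuclear receptor for fatty acids.

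The RNA libraries hold 13194385 to 20086127 counted reads. The library Gps2 LKO 2 stands apart for the genes described here: it was the lowest of the 4 LKO libraries for 75 of the 85 tested genes and lay within the WT range for 41. In the ChIP-seq of GPS2 in the Ncor line, the library WT 3 stands apart, with 3.07% of its tags in peaks against 8.23% and 7.82% in the other WT libraries. The 3 libraries of PPARα in Gps2 WT livers differed by no more than sampling noise (a chi-square of 0.957 per degree of freedom) and were counted as 1 sample. Gps2 itself had 261, 251, 266 and 240 normalised counts in WT and 202, 157, 146 and 206 in LKO livers, with every LKO library below every WT library. Its log2 fold change was -0.53 (SE 0.112; adjusted p = 0.0021, edgeR's quasi-likelihood test). Which exons the deletion removes was not used here, and liver cells other than hepatocytes keep the gene.

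Promoter sequences at GPS2 peaks are shown first, and the ChIP results below were not tested against them. GPS2 had a peak within 3000 bp of the transcription start site (TSS) of 67 of the genes in WT liver, and each sequence is the 150 bp around the centre of such a peak, on the plus strand of mm9. Capitals mark matches, on either strand, to CCGGAAG (ETS factors such as GABP), GCATGCG (NRF1), ATGGCGG (YY1), AAGGTCA (nuclear receptors such as ERRα), CCAAT, or TGACGTC (cAMP response element). Atp5b and Ndufb2 had the tallest GPS2 promoter peaks of the chain, Ndufs7 was also among the tallest, Cox4i1 and Ndufa13 carry the GABP and NRF1 letters, and Sdhd and Uqcrq are genes whose RNA and PPARα signal are described below. The ATG of the YY1 letters is also a start codon, so a match downstream of a TSS can be coding sequence.
Atp5b, chr10:127519929-127520078, no match: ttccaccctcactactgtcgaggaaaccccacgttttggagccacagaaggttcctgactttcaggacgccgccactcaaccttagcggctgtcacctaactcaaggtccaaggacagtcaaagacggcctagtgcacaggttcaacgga
Ndufb2, chr6:39542456-39542605: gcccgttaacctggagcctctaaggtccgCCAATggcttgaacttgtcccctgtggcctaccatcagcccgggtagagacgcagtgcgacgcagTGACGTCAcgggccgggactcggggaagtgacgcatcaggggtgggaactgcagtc
Ndufs7, chr10:79712085-79712234: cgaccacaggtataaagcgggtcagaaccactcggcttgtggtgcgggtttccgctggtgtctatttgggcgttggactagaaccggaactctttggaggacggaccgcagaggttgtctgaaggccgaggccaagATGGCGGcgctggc
Cox4i1, chr8:123192128-123192277: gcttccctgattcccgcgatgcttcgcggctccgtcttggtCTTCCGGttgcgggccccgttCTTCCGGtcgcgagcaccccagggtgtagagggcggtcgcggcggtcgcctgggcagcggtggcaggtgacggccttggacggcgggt
Ndufa13, chr8:72427118-72427267: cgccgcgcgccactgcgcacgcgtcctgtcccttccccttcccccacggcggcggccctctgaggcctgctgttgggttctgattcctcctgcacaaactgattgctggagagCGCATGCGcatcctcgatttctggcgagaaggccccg
Uqcrq, chr11:53243844-53243993: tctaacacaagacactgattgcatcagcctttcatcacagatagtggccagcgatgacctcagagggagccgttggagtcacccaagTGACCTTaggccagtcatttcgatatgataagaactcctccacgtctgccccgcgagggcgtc
Sdhd, chr9:50410236-50410385: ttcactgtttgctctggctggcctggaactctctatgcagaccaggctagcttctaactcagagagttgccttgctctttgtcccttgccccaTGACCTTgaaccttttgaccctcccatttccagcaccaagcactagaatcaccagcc
Of the 67 windows, 10 (14.9%) held CCGGAAG, against 9.42% of 15707 windows of the same length at all GPS2 promoter peaks. ATGGCGG and AAGGTCA were each found in 10 of 67 (14.9%), against 4.19% and 4.79% of all windows. GCATGCG was found in 4 (5.97%, against 2.16%), TGACGTC in 4 (5.97%, against 2.48%) and CCAAT in 6 (8.96%, against 15.7%). The matches are a description of letters in these windows.

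The first comparison asked whether loss of GPS2 in hepatocytes changes the RNA of the chain. The levels rose across its complexes, by a modest amount: 54 of the 85 tested genes (63.5%) were called higher in Gps2 LKO livers (adjusted p below 0.05) and 0 lower, against 23.4% higher and 21.4% lower among all 12220 tested genes. DESeq2 called 50 higher and 0 lower. The median log2 fold change of the 85 genes was 0.35, against 0.03 over all tested genes, and it ran from -0.04 for Ndufaf4 to 0.73 for Atp5k, with 81 of 85 above 0. In 23 of the 85 genes (27.1%) every LKO library lay above every WT library, against 20% of all tested genes, and in 0 genes (against 19.1%) did every LKO library lie below. Without the library LKO 2, 70 genes were higher, 0 were lower and the median was 0.42, while 27.8% of all tested genes were higher and 28.8% lower. With an offset for exon length, described below, 17 genes were higher and 9 lower.

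**Figure D1:**
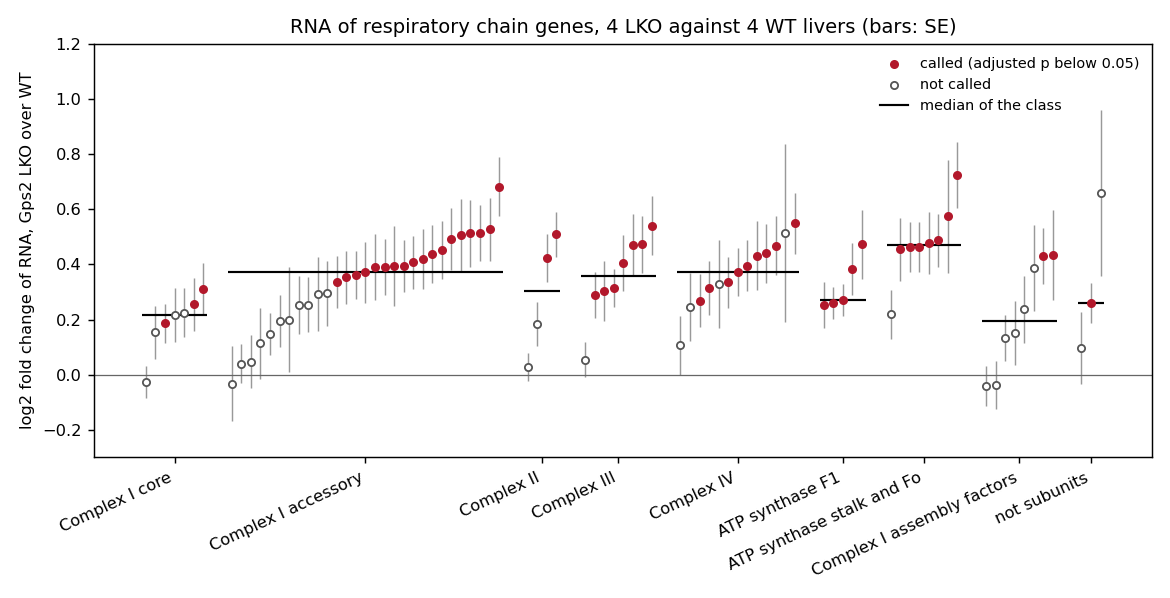
Log2 fold change in RNA (Gps2 LKO minus WT) of each tested respiratory chain gene, grouped by complex. Points are genes with their SE, filled where the adjusted p was below 0.05, and horizontal lines mark the median of each class. Of the 85 points 81 lie above 0, and the medians run from 0.19 for the complex I assembly factors to 0.47 for the stalk and Fo part of ATP synthase.

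Complex I, which oxidises NADH, has core subunits that carry out catalysis and many accessory subunits around them. Of the 29 accessory subunit genes, 18 (62.1%) were higher and 0 lower (median 0.37), while of the 7 core subunit genes 3 (42.9%) were higher and 0 lower (median 0.22). Here and for the complexes below, 23.4% of all tested genes were higher and 21.4% lower. The median exon length was 659 bp for the accessory and 1608 bp for the core genes. Of other genes of 500 to 700 bp 57.8% were higher (median 0.39), and of those of 1500 to 2500 bp 30.9% (median 0.13). Ndufb10, an accessory subunit of the membrane arm, had 1562, 1522, 1537 and 1562 normalised counts in WT and 2819, 1831, 2606 and 2675 in LKO livers. Every LKO library was above every WT library, with LKO 2 nearest to them, and the log2 fold change was 0.68 (SE 0.107; adjusted p = 0.00024). Ndufa6, another accessory subunit, had 2596, 2545, 2514 and 2770 counts in WT and 4386, 3028, 3320 and 4174 in LKO livers. Here too the groups did not overlap (log2 fold change 0.51, adjusted p = 0.00136). Ndufb11 (0.53), Ndufb7 (0.49) and Ndufab1 (0.51), the mitochondrial acyl carrier protein, rose with groups that did not overlap, though Ndufab1 had only 43.4 to 72.4 counts. Genes of this kind often have near-identical processed copies in the genome, and how the counting treated shared reads is not given in the sources used here, so the low counts of Ndufab1, Atp5g2 and Atp5l are uncertain.

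Ndufs1, the largest core subunit of complex I and part of its NADH-oxidising module, did not pass the test. It had 2061, 2076, 2084 and 2196 counts in WT and 2018, 1973, 2145 and 2123 in LKO livers, with overlapping groups (log2 fold change -0.03, adjusted p = 0.717). The flavin-carrying subunit Ndufv1 (0.22, adjusted p = 0.0534) and the matrix-arm subunit Ndufa9 (0.15, adjusted p = 0.135) did not pass the threshold, and both passed it without LKO 2 (adjusted p of 2.99e-05 and 0.00528). Among the 8 assembly factors, Ndufaf6 (0.43, adjusted p = 0.00419) and Ndufaf8 (0.43, adjusted p = 0.0424) were higher and 0 were lower. Their share of 25% is near the 23.4% of all tested genes, and with the length offset 0 were higher and 1 lower.

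Of the 4 subunits of complex II, succinate dehydrogenase, 2 were higher and 0 lower. Sdhd, a membrane anchor of the complex, had 2585, 2491, 2513 and 2684 counts in WT and 4117, 3217, 3275 and 4026 in LKO livers, all LKO libraries above all WT libraries (log2 fold change 0.51, SE 0.0824, adjusted p = 0.000318). Sdhb, the iron-sulfur subunit, had 2651, 2647, 2612 and 2828 counts in WT and 3763, 2946, 3596 and 4107 in LKO livers, again with no overlap (0.42, SE 0.0854, adjusted p = 0.00159). Sdhc, the other anchor, had a log2 fold change of 0.19 (adjusted p = 0.0734). Sdha, the catalytic flavoprotein, stayed within narrow limits, with 8208, 8123, 8174 and 8351 counts in WT and 8298, 8230, 8792 and 8164 in LKO livers (0.03, SE 0.0509, adjusted p = 0.685).

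Of the 8 genes of complex III, 7 were higher and 0 lower (median 0.36). Uqcrq, a small subunit, had 3620, 3420, 3344 and 3464 counts in WT and 5594, 3740, 4455 and 5443 in LKO livers. These groups did not overlap, and LKO 2 lay close to the highest WT library (log2 fold change 0.47, SE 0.103, adjusted p = 0.00271). The core protein Uqcrc1 rose from 4125, 4071, 3864 and 3927 counts to 5329, 4301, 5216 and 5028 (0.31, adjusted p = 0.00276), and the Rieske iron-sulfur protein Uqcrfs1 rose with overlapping groups (0.29, adjusted p = 0.0123). The second core protein, Uqcrc2, had 3720 to 3863 counts in WT and 3583 to 4269 in LKO livers, and its log2 fold change of 0.06 did not pass (adjusted p = 0.494).

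Complex IV, cytochrome c oxidase, had 9 of its 13 tested genes higher and 0 lower (median 0.37). Cox7b had 1695, 1666, 1677 and 1917 counts in WT and 3001, 2050, 2226 and 2920 in LKO livers, with every LKO library above every WT library (log2 fold change 0.55, SE 0.111, adjusted p = 0.00157). Cox4i1, the common isoform of subunit 4, had 6682, 6401, 5914 and 6488 counts in WT and 9589, 6618, 8518 and 8804 in LKO livers, so LKO 2 fell inside the WT range (0.40, adjusted p = 0.00405). Cox5a (0.27), Cox6a1 (0.33) and Cox7a2 (0.43) rose with overlapping groups and Cox7a2l (0.37), a supercomplex factor, without overlap. Cox8a had 1843, 1733, 1775 and 1651 counts in WT and 2145, 1585, 1586 and 2241 in LKO livers, 2 of the LKO libraries below all of WT (0.11, adjusted p = 0.431). Cox7a1, the isoform of heart and muscle, had 5.92 to 21.7 counts in WT and 15.8 to 24.9 in LKO livers (adjusted p = 0.21).

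ATP synthase had 12 of its 13 tested genes higher and 0 lower. All 5 genes of the F1 head were higher (median 0.27), and 7 of the 8 tested genes of the stalk and Fo part (median 0.47). The median exon length was 1800 bp for the F1 genes and 748 bp for the stalk and Fo genes. Of other genes of 1500 to 2500 bp 30.9% were higher (median 0.13), and of those of 700 to 1000 bp 44.1% (median 0.26). Atp5b, the catalytic β subunit, had 19110, 18930, 18720 and 18970 counts in WT and 23420, 20540, 24250 and 22480 in LKO livers. Its WT libraries lay close together and every LKO library was above them (log2 fold change 0.26, SE 0.0582, adjusted p = 0.0031). Atp5a1 (0.27) and Atp5c1 (0.25), the α and γ subunits, rose too, with groups that did not overlap. Atp5k, the e subunit of Fo, had the largest change of the chain, from 746, 818, 792 and 925 counts to 1508, 1019, 1597 and 1311 (0.73, SE 0.12, adjusted p = 0.000366). Atp5o, Atp5f1 and Atp5g3, of the stalk and the c ring, rose by 0.49, 0.46 and 0.46 without overlap, and Atp5g1, another gene for the c subunit, by 0.57 with overlap (adjusted p = 0.0341).

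**Figure D2:**
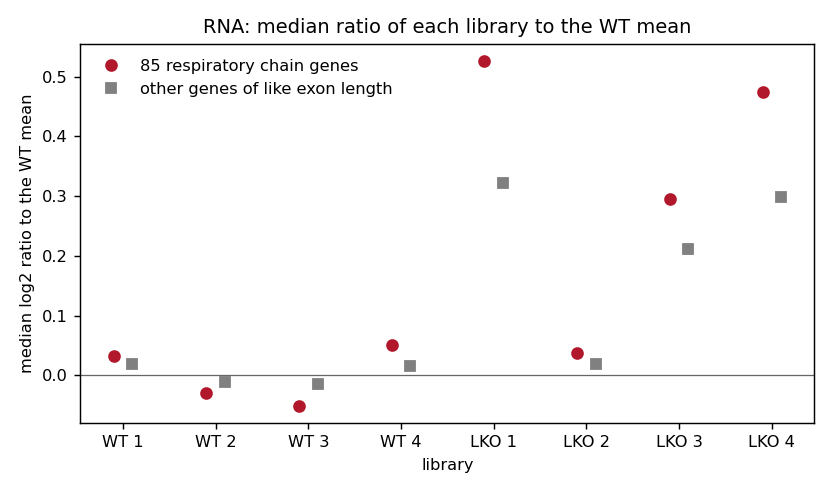
Median log2 ratio to the WT mean in each of the 8 RNA libraries, with circles for the 85 respiratory chain genes and squares for other genes of like exon length. The median exon length was 800 bp for the chain and 1506 bp for the other genes. For the chain the 4 WT medians lie between -0.05 and 0.05, and the LKO medians at 0.53, 0.04, 0.30 and 0.47 for LKO 1 to 4, so LKO 2 sits with WT.

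In RPKM, which divides counts by exon length and library total, the chain spans a wide range of levels in WT liver. Atp5b was highest at 634 ± 5.44 RPKM (SD, n = 4), followed by Ndufa4, a complex IV subunit despite its name, at 529 ± 32.7 and Cox4i1 at 525 ± 26.9. The neighbours Ndufa4 and Cox4i1 differed by less than their SD. Atp5g3 followed at 479 and Atp5a1 at 451 RPKM, and in LKO livers the 5 genes had 759, 719, 690, 661 and 544 RPKM, in the same order. Further down the range, Ndufs1 had 45.2 RPKM in WT and 44.4 in LKO livers, and Ndufab1 3.77 and 5.39. The share of all reads that fell on the 88 genes was 1.07% to 1.31% over the 8 libraries.

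Short genes in general were higher in the LKO libraries, and the chain is made of short genes, so the 85 genes were set beside genes of like exon length. The Spearman correlation of the log2 fold change with exon length was -0.40 across the 12220 tested genes and -0.37 across the 85, as a description across genes, which share the same libraries. Of the 3727 other tested genes with an exon length between 454 and 2135 bp, the 10th to 90th percentile of the chain, 37.5% were higher and 7.22% lower, with a median of 0.21. These genes were still longer than the chain, with a median exon length of 1506 bp against 800 bp. Within length classes the medians of chain genes and other genes were near each other below 700 bp, 0.42 against 0.45 under 500 bp and 0.39 against 0.39 from 500 to 700 bp. Above that the medians of the chain genes were 0.41 against 0.26 from 700 to 1000 bp, 0.29 against 0.24 from 1000 to 1500 bp and 0.26 against 0.13 from 1500 to 2500 bp. Over 2500 bp they were 0.03 against -0.09, and 0 of the 5 chain genes were called. The relation to length was present in LKO 1, 3 and 4 (correlations of -0.50, -0.36 and -0.48 with length) and near 0 in LKO 2 (-0.04), and these are the libraries in which the chain was high. Whether the length relation comes from the preparation of the RNA or from the livers was not tested.

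**Figure D3:**
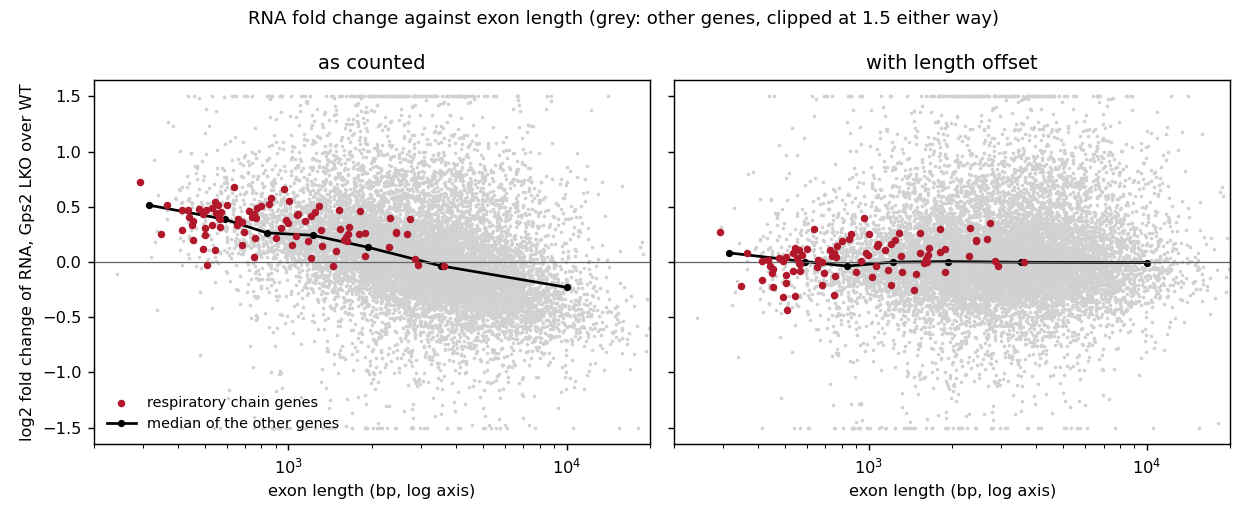
Log2 fold change in RNA (Gps2 LKO minus WT) against exon length in bp on a log axis, as counted (left) and with the length offset described next (right). Other tested genes are grey, clipped at 1.5 either way, the 85 respiratory chain genes are red, and the black line joins the medians of the other genes in length classes. On the left the cloud falls with length (Spearman correlation -0.40) and the red points lie at its short end, and on the right their median is 0.03.

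With an offset for exon length fitted in each library over all tested genes, the shift of the chain as a whole was lost: 17 genes were higher and 9 lower, with a median of 0.03, against 21.7% higher and 22.1% lower among all tested genes. Of the 54 genes called without the offset, 16 were higher in both fits and 0 became lower. These 16 were Atp5a1, Atp5b, Atp5f1, Atp5g3, Atp5k, Atp5o and Atp5sl, Cox7b, Ndufa13, Ndufb8 and Ndufb10, Sdhb and Sdhd, and Uqcrc1, Uqcrh and Uqcrq. Of the 13 tested subunits of ATP synthase 6 were among them, as were 3 of 29 accessory and 0 of 7 core subunits of complex I. Ndufa11, an accessory subunit, was called only with the offset. Ndufb10 kept a log2 fold change of 0.29 (adjusted p = 0.000159), Atp5f1 of 0.30 (adjusted p = 0.000569), Sdhd of 0.27 (adjusted p = 0.000389) and Atp5b of 0.11 (adjusted p = 0.0268). The 9 lower genes, Cox6c, Cox8a, Ndufa1, Ndufa3, Ndufa10, Ndufaf1, Ndufb3, Ndufs5 and Ndufs7, had passed in neither direction without the offset. Cox8a, for example, went from 0.11 to -0.30 (adjusted p = 0.0017).

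Ribosomal protein genes were set beside the chain as 2 further lists of short genes, with a median exon length of 800 bp for those of the cytosol and 1067 bp for those of mitochondria, against 800 bp for the chain. Among all tested genes 23.4% were higher and 21.4% lower without the length offset, and 21.7% and 22.1% with it. Of 64 tested genes for cytosolic ribosomal proteins 52 (81.2%) were higher and 0 lower (median 0.56), and 32 (50%) were higher with the offset (median 0.27). Of 77 tested genes for mitochondrial ribosomal proteins 29 (37.7%) were higher and 0 lower (median 0.22). This is near the 37.5% (median 0.21) of the other genes of like length to the chain. With the offset 6 (7.79%) were higher and 9 (11.7%) lower. The median of the chain lay between these lists without the offset, and with it beside that of the mitochondrial ribosome.

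The regulators of the chain did not share one direction. Ppargc1a, the coactivator of mitochondrial biogenesis, had 141, 158, 183 and 152 counts in WT and 218, 264, 209 and 220 in LKO livers, with no overlap (log2 fold change 0.53, adjusted p = 0.00172). LKO 2, the lowest of the LKO libraries for most genes of the chain, had the highest count of Ppargc1a. Of the 16 regulators on the list, 2 were higher (Ppargc1a and Nfe2l2) and 2 lower (Gabpb2 and Ppara), and Nrf1 (-0.08), Gabpa (-0.12), Esrra (-0.06), Yy1 (0.16), Tfam (0.16) and Ppargc1b (-0.31) passed in neither direction. Among 44 assembly factors outside the naming rule 14 (31.8%) were higher and 4 (9.09%) lower, among 15 electron carrier genes 3 (20%) and 2 (13.3%), and among 13 genes of the citric acid cycle 6 (46.2%) and 1 (7.69%), beside 23.4% and 21.4% of all tested genes. With the length offset these counts became 3 higher and 11 lower, 1 and 3, and 3 and 3. Those of the 16 regulators, with a median exon length of 4452 bp, became 4 higher (25%) and 2 lower (12.5%). With the offset 21.7% of all tested genes were higher and 22.1% lower. Atpif1, the inhibitor protein of ATP synthase, was higher by 0.67 without the offset (adjusted p = 0.000355). On the list of other ATP synthase genes, all 3 tested genes were higher without it (median 0.605) and 1 with it (median 0.173). Markers of some other cells moved in the same libraries. All 6 macrophage markers and all 6 stellate cell markers were higher, with summed levels of 132 to 137 CPM in WT against 176 to 205 in LKO livers, and 177 to 185 against 332 to 342. Of 5 endothelial markers 1 was higher (94.9 to 101 CPM in WT against 94.1 to 115 in LKO livers), of 4 cholangiocyte markers 2 (9.11 to 11.5 against 12.5 to 15.1), and the 1 tested lymphocyte marker of 4 was higher. Of the 6 hepatocyte markers 2 were higher and 1 lower, with a summed level of 105000 to 108000 CPM in WT and 142000 to 169000 in LKO livers, and the part of these shifts in the levels of the chain was not tested.

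GPS2 occupied the promoters of the chain in WT liver, in the 1 library per genotype that was sequenced for it. Over the 67 promoter peaks the tags summed to 1354 in WT and 68 in Gps2 LKO liver, or 874 (828 to 922, 95% exact Poisson interval) and 46.0 (35.7 to 58.3) normalised tags, which are tags per 10000000 total tags of the library. That is 19.0-fold lower in LKO liver, beside 24.5-fold over all promoter peaks. All 67 were below 1/2 of WT, as were 99.2% of all promoter peaks, and the intervals cover counting error only. The peaks were low, with 29.0 normalised tags at Atp5b (45 tags in WT, 1 in LKO) and a median of 12.3, and Ndufab1, Ndufs7 and Sdhb went from 39, 39 and 31 tags to 0. With counts of 0 or 1 the fold is a lower bound, at least 14.3-fold for Atp5b and at least 9.9-fold for Sdhb, against a floor of 3 tags in the library.

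RNA polymerase II, also with 1 library per genotype, was present at 75 promoters. Its normalised tags summed to 8200 (8040 to 8370) in WT and 9110 (8940 to 9280) in Gps2 LKO liver, a ratio of 1.11 (1.08 to 1.14), and over all promoter peaks the ratio was 1.05. The single promoters ranged from 0.779 at Ndufb7 (78 and 62 tags) to 1.42 at Sdhd (83 and 120 tags) and Ndufs1 (60 and 87 tags), and 0 of 75 passed a 2-fold change, which 1.82% of all promoter peaks did upward and 2.32% downward. Without replicates there is no test of these differences. In RNA Ndufb7 was higher (0.49) and Ndufs1 did not pass the test.

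No shift of histone marks at the promoters of the chain was detected after loss of GPS2. Acetylation of lysine 27 of histone H3 (H3K27ac), a mark of active promoters and enhancers, was measured in 2 WT and 2 LKO libraries at 65 promoters, and 0 were called higher or lower by edgeR, while 0.749% and 0.148% of all promoter peaks were. At an unadjusted p below 0.05 the count was 0 as well, against 14.6% of all peaks in either direction, and DESeq2 called 0. The median log2 fold change was -0.02, against 0.01 over all promoter peaks, and in 8 promoters every LKO library was above WT and in 10 below (12.3% and 15.4%, against 24.2% and 17.3% of all promoter peaks). Sdhd had the highest value, with 586 and 559 normalised tags in WT and 619 and 676 in LKO (0.18, adjusted p = 0.388). The lowest was Ndufa4l2, at a low peak with 35.2 and 32.7 in WT and 30.1 and 22.4 in LKO (-0.37, adjusted p = 0.485). Atp5k, the largest riser in RNA, had 190, 164, 195 and 194 (WT 1, WT 2, LKO 1, LKO 2).

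Trimethylation of lysine 4 of histone H3 (H3K4me3), the mark of active start sites, was measured in the same design at 67 promoters. EdgeR and DESeq2 called 0, against 0.64% of all promoter peaks called higher and 0.0936% lower, and 3 (4.48%) were higher at an unadjusted p below 0.05, which 8.05% of all peaks passed in either direction. Every LKO library was above every WT library at 23 promoters (34.3%, against 29.8% of all promoter peaks) and below at 1, that of Ndufa2 (against 5.59%). The broad peak over Ndufa6 had 1290 and 1270 normalised tags in WT and 1460 and 1500 in LKO livers (log2 fold change 0.21, adjusted p = 0.21). The median was 0.03 with scaling to total tags and -0.01 with TMM scaling, so its direction is not fixed by these data.

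In the Ncor and Smrt lines no promoter of the chain passed the test for H3K27ac either, but the log2 fold changes of LKO against WT livers lay mostly below 0, being above 0 at 5 of 64 promoters in the Ncor line and at 2 of 64 in the Smrt line. In the Ncor line, with 3 WT and 3 LKO libraries, the median log2 fold change over 64 promoters was -0.17, against -0.06 over all promoter peaks and -0.07 over 4715 promoter peaks of like height. Every LKO library was below every WT library at 24 promoters (37.5%, against 11.1% of all promoter peaks and 12.9% of those of like height), and at 0 promoters above (against 5.33%). EdgeR called 0 promoters, where 0.842% of all promoter peaks were higher and 0.619% lower, and DESeq2 called 0. At an unadjusted p below 0.05, 10 (15.6%) were lower and 0 higher, while 15.5% of all peaks passed in either direction. The share of all peaks that were lower alone was not counted. In the Smrt line, also 3 against 3, the median was -0.13, against -0.04 over all promoter peaks and -0.06 over those of like height. Every LKO library was below every WT library at 33 of 64 promoters (51.6%, against 11.9% and 16.4%), and above at 0 (against 3.01%). EdgeR called 0 of the promoters and 0% of all peaks in that table, and DESeq2 called 0 promoters. At an unadjusted p below 0.05, 6 (9.38%) were lower, beside 5.93% of all peaks in either direction. With TMM scaling the medians were -0.15 and -0.13.

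Ndufb9, an accessory subunit of complex I, had 351, 355 and 361 normalised tags in WT and 298, 265 and 289 in Ncor LKO livers. All LKO libraries were below all WT libraries, yet across all peaks the change of -0.32 (SE 0.0956) had an adjusted p of 0.11. In the Smrt line Ndufb9 had 311, 314 and 344 in WT livers and 289, 298 and 283 after loss of SMRT (-0.16, adjusted p = 0.836). Uqcr10, of complex III, had 390, 389 and 393 in WT and 346, 291 and 312 in Ncor LKO livers (-0.30, adjusted p = 0.147). Ndufb6 had no overlap in the Smrt line, with 221, 239 and 225 for WT against 196, 190 and 180 for LKO (-0.28, adjusted p = 0.834). The widest spread there was at Cox6b2, with 94.3, 6.63 and 135 for WT against 202, 150 and 83.2 for LKO (0.89, SE 0.715, adjusted p = 0.865). Sdhb had the highest of the 5 values above 0 in the Ncor line (0.11, adjusted p = 0.847), with 550, 636 and 607 for WT against 815, 466 and 652 for LKO, a spread wider than any difference between the groups.

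The medians of the 64 promoters lay at 0.03, -0.05 and 0.01 in the Ncor WT libraries and at -0.05, -0.30 and -0.17 in LKO, and at 0.02, -0.03 and 0.02 in the Smrt WT libraries and -0.12, -0.11 and -0.15 in LKO. Of the 64 genes, 57 had a log2 fold change below 0 in both lines, 15 had every LKO library below every WT library in both, 9 in the Ncor line alone and 18 in the Smrt line alone. The 2 lines have separate WT libraries. The difference between the lines itself, tested as an interaction, was called at 0 of 64 promoters, with 0 at an unadjusted p below 0.05 and a median of -0.04, while 0.209% of all promoter peaks were called higher and 0.0504% lower. The share of tags in peaks was 73.9% to 77.7% over the Ncor and 78% to 80.9% over the Smrt libraries.

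**Figure D4:**
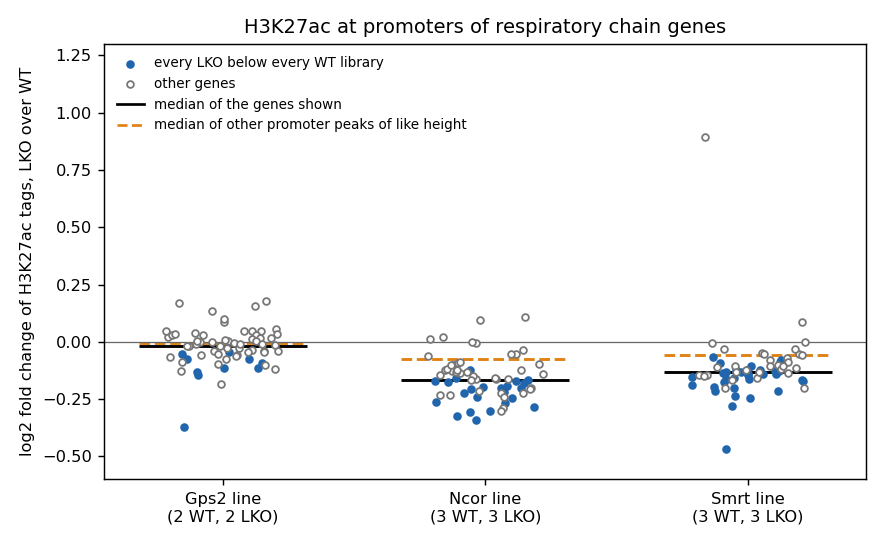
H3K27ac log2 fold change (LKO minus WT) at the promoters of respiratory chain genes in the Gps2, Ncor and Smrt lines. Points are genes, blue where every LKO library was below every WT library, with solid lines for their medians and dashed lines for the medians of other promoter peaks of like height. The solid lines lie at -0.02, -0.17 and -0.13, and the high point in the Smrt line is Cox6b2 (0.89).

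Away from the promoters, 1 H3K27ac peak stood out. It lies between genes at chr19:4018170-4027352 in mm9, centred at -10006 bp from the TSS of Ndufv1. Ndufv1 (chr19:4007497-4012806) and Gstp1 (chr19:4035411-4037921), a glutathione transferase gene, flank it. In the Gps2 line it had 699 and 587 normalised tags in WT and 350 and 311 in LKO livers (log2 fold change -0.96, SE 0.11, adjusted p = 0.013), the only one of 136 peaks of the chain called in that comparison, where 1.21% of all peaks were higher and 0.212% lower. Its call was lost when the library WT 1 was left out, as were the calls of all other peaks. That fit holds 1 WT library. In the Ncor line the same region had 886, 884 and 750 in WT livers and 289, 319 and 321 after loss of NCOR (-1.44, SE 0.104, adjusted p = 0.00152). In the Smrt line it was low in both groups, 102 ± 7.62 in WT and 88.1 ± 9.89 in LKO livers (SD, n = 3), and did not pass (-0.21, adjusted p = 0.845). The effect differed between the Ncor and Smrt lines by -1.23 (interaction, adjusted p = 0.00832, where 0.33% of all peaks were called higher and 0.0959% lower), and already the WT libraries of the 2 lines differed, 840 ± 77.9 against 102. H3K4me3 had 43.5 and 37.3 normalised tags there in Gps2 WT and LKO livers, and the promoter of Ndufv1 itself had 192 and 196 tags in WT and 183 and 175 in Gps2 LKO livers (-0.12, adjusted p = 0.653). The RNA of Ndufv1 had a log2 fold change of 0.22 and did not pass (adjusted p = 0.0534).

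**Figure D5:**
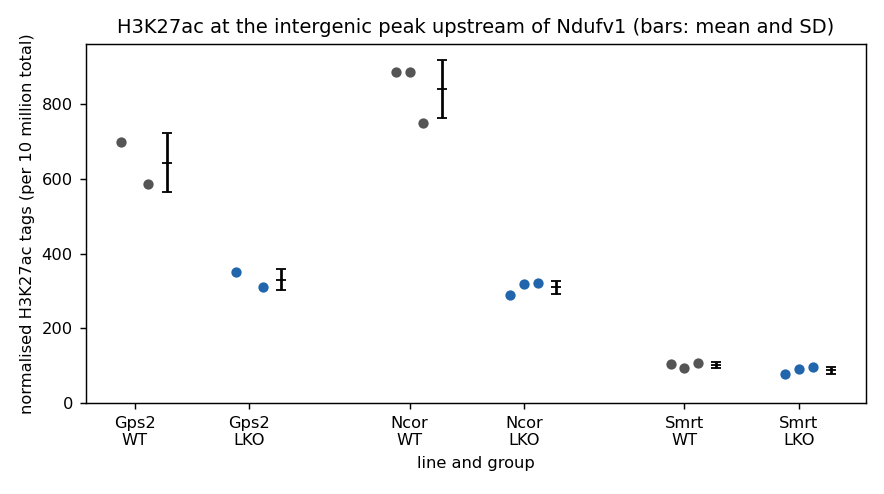
Normalised H3K27ac tags in the peak upstream of Ndufv1, in WT and LKO libraries of the Gps2, Ncor and Smrt lines. Points are libraries, and bars give the mean and SD; the signal falls from 643 to 331 in the Gps2 line and from 840 to 310 in the Ncor line, and lies at 102 and 88.1 in the Smrt line.

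Besides that region, 3 H3K27ac peaks nearest to genes of the chain were called in the Ncor line, where 2.32% of all peaks were higher and 0.801% lower. The peak 26117 bp from the TSS of Ndufb3 (chr1:58665156-58673560, between genes) rose from 492, 344 and 352 to 582, 562 and 724 (0.65, adjusted p = 0.0489). The peak at -13190 bp from the TSS of Cox7a2, inside Tmem30a (chr9:79619668-79622033), rose from 55.6, 57.5 and 58.8 to 95, 84.9 and 80.2 (0.60, adjusted p = 0.0398). The peak 116172 bp from the TSS of Ndufs4 (chr13:115061253-115063008) fell from 77.9, 92.3 and 100 to 48.6, 58.3 and 54.4 (-0.75, adjusted p = 0.0258). The groups did not overlap in these peaks, and which gene, if any, each of them serves was not tested.

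Binding of PPARα at the promoters of the chain was compared next, and its direction depended on the scaling. The WT libraries count as 1 sample here, so the spread comes from the 3 LKO libraries alone and that of WT livers is assumed to be like it. Of 83 promoters 5 were higher in Gps2 LKO livers and 0 lower with scaling to total tags, against 11% of all promoter peaks higher and 0.156% lower, and the median of 0.30 was below that of all promoter peaks (0.44). With TMM scaling 0 were higher and 2 lower (against 0.146% and 0.484% of all promoter peaks) and the median was -0.30, and DESeq2 called 0. The LKO libraries had 28.9% to 32.1% of their tags in peaks against 19.2% to 21.9% in WT, and over all peaks the choice of scaling moved the median from 0.62 to 0.02. Sdhd, at the intronic peak whose sequence is shown above, had 25.3, 25.6 and 29.3 normalised tags in WT and 43.7, 50.2 and 46.9 in LKO livers (0.81, adjusted p = 0.0272, and 0.21 with TMM). Ndufc1 (1.04, adjusted p = 0.00755), Cox7b (1.04, adjusted p = 0.0482), Ndufv3 (0.82, adjusted p = 0.025) and Uqcrq (0.73, adjusted p = 0.0369) were the others, and none of the 5 passed with TMM. Of these genes Sdhd, Cox7b and Uqcrq were higher in RNA and Ndufc1 and Ndufv3 were not called. These counts take 1 peak per gene, the one with the most tags. Over all peaks of the chain within 3000 bp of a TSS, 15 were called higher with scaling to total tags. They lay also at Atp5j, Ndufa5, Ndufab1, Ndufaf4, Ndufs6, Ndufs8, Sdhb and Uqcrc1, and their share of such peaks was not counted.

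Over all 336 PPARα peaks nearest to these genes 59 were called higher and 0 lower, against 21.5% of all peaks higher and 0.147% lower. The 3 largest rises among them lay away from promoters, near Atp5g3, Ndufa12 and Ndufaf6, with log2 fold changes of 2.23, 2.12 and 2.10. With TMM scaling those near Atp5g3 (1.64, adjusted p = 0.216) and Ndufaf6 (1.51, adjusted p = 0.143) did not pass. The peak in the third intron of Ndufa12, an accessory subunit of complex I (chr10:93667857-93668073), had 10.1, 11.4 and 12.4 normalised tags in WT and 71.3, 40.7 and 41.6 in Gps2 LKO livers (2.12, SE 0.33, adjusted p = 1.48e-07 with the WT libraries as 1 sample), and with TMM scaling it was still higher (1.52, adjusted p = 0.00173). In Ppara KO livers NCOR at this place fell from 34.9, 18.9 and 71.6 to 13.9, 12.8 and 7.83 (-1.86, adjusted p = 1.66e-05). The RNA of Ndufa12 had a log2 fold change of 0.39 (adjusted p = 0.0407) with overlapping groups. The 150 bp at the centre of the PPARα peak, printed for this change, hold no AGGTCA, the core of nuclear receptor sites, which 29% of all windows at PPARα peaks hold.
Ndufa12, chr10:93667891-93668040: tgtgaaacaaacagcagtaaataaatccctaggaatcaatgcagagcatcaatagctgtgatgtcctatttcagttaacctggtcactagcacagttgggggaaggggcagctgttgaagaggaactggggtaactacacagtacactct
Ndufa6, chr15:82192843-82192992: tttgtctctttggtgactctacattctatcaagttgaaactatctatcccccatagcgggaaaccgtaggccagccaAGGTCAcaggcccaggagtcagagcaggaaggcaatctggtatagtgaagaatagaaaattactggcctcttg
Of the 369 NCOR peaks of the chain, 1 was higher and 6 lower in Ppara KO livers, against 0.136% and 2.51% of all peaks. The second window belongs to the largest of these falls, at -8196 bp from the TSS of Ndufa6 (chr15:82192841-82192993), and its capitals mark AGGTCA, found in 24.9% of windows at NCOR peaks. NCOR there had 32.5, 31.8 and 32 normalised tags in WT and 2.45, 1.35 and 0.712 in Ppara KO livers (-4.37, adjusted p = 6.03e-15). At -4238 bp from the same TSS (chr15:82188872-82189046) it went the other way, from 7.31, 8.6 and 10.1 to 40.9, 43.1 and 28.5 (2.10, adjusted p = 4.29e-06). The Ppara KO stock is named with a 129 strain, and an effect of PPARα and one of strain sequence near a peak cannot be told apart here.

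At the promoters themselves NCOR and GPS2 followed the general level of their libraries. NCOR in Gps2 LKO livers was called at 0 of 79 promoters (0.00439% of all promoter peaks higher and as many lower), with 0 at an unadjusted p below 0.05, 0 by DESeq2 and a median of -0.15, against -0.09 over all promoter peaks. NCOR in Ppara KO livers was called at 0 of 80 (0.0672% higher and 1.07% lower over all promoter peaks), with 7 (8.75%) lower at an unadjusted p below 0.05 (15.5% of all peaks in either direction), 0 by DESeq2, and a median of -0.25 (0.05 with TMM) against -0.28. GPS2 in Ppara KO livers was called at 0 of 61 (0.1% of all promoter peaks lower), with 3 (4.92%) lower unadjusted (23% of all peaks in either direction), 0 by DESeq2, and a median of -0.62 against -0.71 (0.33 with TMM). GPS2 in Ncor LKO livers had a median of -1.11 at 69 promoters, against -1.01 over all promoter peaks, and -0.07 with TMM. It was called at 0 of the 69, against 0.0265% of all promoter peaks lower. Unadjusted, 17 (24.6%) were lower, beside 34.3% of all peaks in either direction, and by DESeq2 5 (7.25%), beside 14.1% of all peaks lower. Without the library WT 3 it was called lower at 46 (66.7%), as were 59.1% of all peaks. PPARα in Ncor LKO livers was called at 0 of 83 (0.0398% higher and 0.00795% lower over all promoter peaks), with 0 unadjusted, 0 by DESeq2 and a median of 0.12 against 0.06.

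In Ppara KO livers the signal of the PPARα antibody was called lower at 6 of 62 promoters (9.68%). This compares with 19.8% of all promoter peaks and 4.65% of 6650 promoter peaks of like height. DESeq2 called 3 lower, and 0 were called higher (against 0.00949%). Called or not, the log2 fold change was above 0 at only 8 of the 62. Every KO library lay below every WT library at 29 of them (46.8%, against 58.9% of all promoter peaks and 54% of those of like height). Over all 139 peaks of the chain 29 were lower and 0 higher, against 27.6% and 0.0174% of all peaks. The median was -0.93 against -1.32 over all promoter peaks and -1.03 over those of like height. Ndufb10 had 8.49 and 10.7 normalised tags in WT and 1.37 and 1.47 in KO livers (-2.68, adjusted p = 0.00992). Atp5g3, at a peak 1951 bp into the gene, had 12 and 9.94 in WT and 0.687 and 0 in KO livers (-4.64, adjusted p = 0.00124), where the fitted value depends on the prior count. Cox6c, Ndufs6, Atp5g1 and Ndufc2 were the others, and with TMM scaling 0 of the 62 promoters were lower and 1 higher (against 2.21% and 0.513% of all promoter peaks) and the median was 0.42. Atp5d was counted among the 62 by another peak (1.57), but its peak 429 bp from the TSS was also called lower. That peak had 3.54 and 3.06 normalised tags in WT and 0 and 0 in KO livers (-5.23, adjusted p = 0.0186). With TMM scaling it did not pass (adjusted p = 0.287). Sdhd and Uqcrq, whose PPARα signal was higher in Gps2 LKO livers, had 2.83 and 1.53 against 0.687 and 0.733, and 5.66 and 4.59 against 2.75 and 2.20, and neither passed (adjusted p of 0.279 and 0.328).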

How the data were processed

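RNA-seq: per the study's methods, polyadenylated RNA was aligned with HISAT2 and reads were counted in exons. The authors deposited whole read counts per gene, not normalised, with an exon length per gene. The methods name HOMER for counting, while the submitters' processing notes also list featureCounts, and whether the counting used strand is not given in the sources used here. The gene positions of the RNA table differ from those of mm9 (the notes list mm9, GRCm38 and mm10), so none of them are printed. ChIP-seq: the authors aligned reads to mm9 with Bowtie (the notes list Bowtie2), called peaks with HOMER, and deposited raw tag counts per merged peak, with total tags per library. No source used here gives the aligner versions. The columns of the authors' own comparisons, fold changes, p-values and calls, were not used.

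Counts were tested with edgeR 4.0.16 (quasi-likelihood, R 4.3.3) over the whole table, with TMM scaling and filterByExpr for RNA, and with scaling to total tags and no filter beyond 1 tag for ChIP, since the study scales peaks to total tags. For marks in the Gps2 line, peaks had to overlap by 1 bp a deposited peak of the mark in at least 2 libraries. Adjusted p-values are Benjamini-Hochberg over all features tested, called below 0.05. The promoter peak of a gene is its row within 3000 bp of the TSS with the most tags. Like height means between the 10th and 90th percentile of the chain's promoter peaks. The length offset is a loess trend (span 0.3) of each library's log2 ratio on log2 exon length. Alternatives were DESeq2 1.42.0, other scalings and filters, a 1000 bp promoter, a replicate block and leaving out each library. The offset without LKO 2 and the PPARα WT libraries as separate samples were chosen after seeing the data. Fits were tested on simulated data. Groups came from the labels alone, and input libraries were not used. Genes named were the 12 largest rises among called genes without overlap and at least 100 counts, the fixed subunits and regulators, and the 3 largest rises and falls among called peaks. Other genes are named for a count or a comparison, after their values were seen. Members and lists were chosen with earlier results of these data known. Figures: matplotlib 3.10.9, Python 3.11.15.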

Additional observations from a re-analysis of the deposited data

Results flagged for a closer look

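In 5 of 84 groups of 4 libraries tested, 1 library lay far from the other 3 by Dixon's criterion, which chance gives in about 1 of 20. In WT livers these were the highest count of Cox7b (1920), of Ndufb11 (877) and of Ndufs1 (2200), the lowest count of Uqcrc2 (3720) and the lowest count of Esrra (368). The log2 fold changes of these 5 genes kept their sign and their side of the threshold when each library was left out in turn. The H3K27ac peak upstream of Ndufv1 differed in its response between the Ncor and Smrt lines, by -1.23 on the log2 scale (interaction, edgeR's quasi-likelihood test, adjusted p = 0.00832).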

How the results depend on the processing

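The RNA result depended on the treatment of exon length. The 54 higher and 0 lower genes with a median of 0.353 became 17, 9 and 0.0321 with the length offset, 20, 10 and 0.0331 with the replicate block and the offset together, and 23, 11 and 0.0571 with the offset and without LKO 2. Leaving out 1 library gave 43 to 70 higher genes, and the block alone 66. Under these 3 settings with an offset, in that order, the sign turned for Sdhc (-0.0731, -0.0727, -0.0853), Ndufa9 (-0.09, -0.09, -0.0856), Uqcrc2 (-0.0903, -0.0926, -0.121), Cox5a (-0.0975, -0.0974, -0.0941), Cox6a1 (-0.0781, -0.0801, -0.0736), Cox8a (-0.305, -0.308, -0.337), Nrf1 (0.0791, 0.0827, 0.105) and Gabpa (0.0197, 0.0211, 0.0212). With TMM in place of total tags the medians at promoters became -0.00965 for H3K4me3, -0.301 for PPARα in the Gps2 line, -0.0671 for GPS2 in the Ncor line, and 0.333, 0.0548 and 0.424 for GPS2, NCOR and PPARα in the Ppara line. For PPARα in the Gps2 line the 5 higher and 0 lower promoters became 0 and 2 with TMM, 0 higher with DESeq2, 1 lower with filterByExpr, and 10 and 1 with the WT libraries as separate samples. For GPS2 in the Ncor line 5 were lower with DESeq2, 7 with the replicate block and 46 without WT 3. For PPARα in the Ppara line the 6 lower became 0 with TMM (1 higher), 3 with DESeq2, 2 with filterByExpr and 0 with the replicate block, and the median was -3.66 with filterByExpr. Leaving out 1 library in turn gave medians of 0.00173 to 0.0804 for H3K4me3, 1 to 8 higher promoters for PPARα in the Gps2 line, 0 to 46 lower for GPS2 in the Ncor line, and 0 (without either WT library) to 7 lower with medians of -1.48 to -0.88 for PPARα in the Ppara line. It took the median across 0 for H3K27ac in the Gps2 line (-0.0509 to 0.015), NCOR in the Gps2 line (-0.369 to 0.0301), PPARα in the Ncor line (-0.14 to 0.327) and the Ncor against Smrt difference (-0.0908 to 0.0196), while H3K27ac stayed at -0.228 to -0.111 in the Ncor and -0.149 to -0.109 in the Smrt line. The causes were not tested. In no comparison with at least 3 pairs did every pair of same-numbered libraries correlate above 0.1. With 2 pairs the correlation was 0.18 for H3K27ac and 0.27 for H3K4me3 in the Gps2 line, each library best with its own number, and -0.056 for PPARα in the Ppara line, which does not settle whether these numbers pair samples. The block was kept as an alternative, and the other calls kept their side with the block. A replicate block for PPARα in the Gps2 line was not run, because its WT libraries count as 1 sample. Of the remaining results, 404 counts and medians stayed near their main value, and 630 single values kept direction and side. For a median, near means within the spread of the library medians, so medians that crossed 0 by less are among the 404. For a count it allows a moderate change, such as 54 to 70. Among the single values, 86 lost and 12 gained the call. Peaks of few tags and groups of 2 or 3 libraries limit what could be called.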

Other observations

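Some regions near genes of the chain carried other signals. The region 26117 bp from the TSS of Ndufb3, whose H3K27ac was higher in Ncor LKO livers, held 28 GPS2 tags in WT and 0 in Gps2 LKO liver. Of all GPS2 peaks 98.9% were below 1/2 of WT in that comparison. The PPARα antibody fell at this region in Ppara KO livers from 29.9 to 3.55 normalised tags (adjusted p = 4.85e-05), where 27.6% of all peaks were called lower. In an intron of Itsn1, 82551 bp from the TSS of Atp5o (chr16:91849229-91849420, mm9), NCOR fell in Ppara KO livers from 35.8, 33.5 and 54.8 to 12.3, 12.8 and 7.12 (-1.94, adjusted p = 7.99e-06). Around the chain in RNA, values are given without the length offset. Etfb, of the electron transfer flavoprotein, was higher in Gps2 LKO livers by 0.41 (adjusted p = 0.0071). Etfdh, which passes the electrons of that flavoprotein to ubiquinone, was lower (-0.32, adjusted p = 0.000524). In the citric acid cycle Fh1, fumarase, was higher (0.42, adjusted p = 0.000504) and Ogdh lower (-0.30, adjusted p = 0.00312). These genes and regions were named after their values were seen.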
